A study of Mus musculus with 12 samples.

Results

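A set of 10 mouse genes that mark the blood vessel lining were followed in the kidney. They are Kdr, Flt1, Tek, Tie1, Eng, Pecam1, Cdh5, Emcn, Plvap and Ehd3, chosen by name as established endothelial genes. These are 10 of the 57180 genes counted, and all 10 were among the 17163 genes with enough reads to be tested. The 12 kidneys came from male C57BL/6J mice that were 60 days old when the experiment began. In the control group, 4 mice received saline with 2% Tween 80 by daily intraperitoneal injection for 28 days. Another 4 mice received 10 mg cannabidiol (CBD, a non-intoxicating cannabinoid of Cannabis sativa) per kg of body weight (b.w.) in the same vehicle, and the last 4 received 20 mg CBD/kg b.w. All animals were killed under isoflurane. RNA came from kidney tissue, and the sources used here do not say which region of the kidney was used. In such bulk tissue, fewer endothelial cells and less RNA per endothelial cell cannot be told apart.

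Endothelial cells line every vessel of the kidney, from arteries to the fenestrated capillaries of the glomerulus and the peritubular network. Their maintenance depends on vascular endothelial growth factor (VEGF), which podocytes and tubule cells release and which the tyrosine kinase receptors encoded by Kdr and Flt1 bind. A parallel system, in which angiopoietins act on the receptor encoded by Tek, steadies the vessel wall.

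None of the 10 genes passed the test at either dose, where 0.0291% of all tested genes did at 10 mg and 0.303% at 20 mg. Against control, Kdr had the smallest p of the members: at the 20 mg dose its level was 20.3% below that of the control group, with every treated kidney below every control as in 2.63% of all genes, but its adjusted p was 0.418. Eng was higher at 20 mg than at 10 mg without overlap (1.7% of all genes), also without passing the adjusted threshold. Outside these members, Rgcc and Klf2 of the vascular lists were called higher at 20 mg, as were 0.169% of all genes. Their calls were lost in 3 and 5, respectively, of the 12 fits that left out 1 library. Across libraries, Cdh5 was lower and Tie1 higher, without overlap, in the 4 libraries with the smallest share of reads from the mitochondrial genome, as in 6.65% and 6.29% of all genes. In the other 8 libraries neither gene had a called relation to that share, where 0.00583% of all genes had. On the log2 scale per 10 percentage points, Cdh5 was at 0.46 (unadjusted p = 0.0189 by edgeR) and Tie1 at -0.07 (unadjusted p = 0.692 by edgeR).

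Each library was a separate mouse and held between 15417867 and 23532088 reads assigned to genes. Mitochondrially encoded genes took 3.53 to 5.77% of these counts in 4 libraries and 12.8 to 23.4% in the other 8. The 4 low libraries were control 2, replicates 1 and 3 of the 10 mg group, and replicate 3 of the 20 mg group, so each group held at least 1. Levels below are CPM, meaning counts scaled to a common library size, after trimmed mean of M-values (TMM) normalization. Tests are edgeR quasi-likelihood tests, and a gene was called when its p adjusted over all 17163 genes was under 0.1.

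The members were found in every library with at least 364 and at most 5721 reads. Levels were compared between genes only per kilobase of annotated exon. In the control group Plvap, which encodes the protein of the diaphragms across fenestrae, stood apart at 42.8 ± 6.67 CPM per kb (SD, n = 4). Next came Tek at 10.5 ± 0.388, Eng at 10.1 ± 1.29 and Kdr at 9.68 ± 0.899 CPM per kb. Flt1 (8.05), Pecam1 (7.97), Emcn (7.69), Cdh5 (7.64) and Tie1 (6.78) followed, and from Tek down to Tie1 each gene overlapped its neighbour over the control kidneys. Ehd3 was lowest at 4.70 ± 0.452 CPM per kb and did not overlap Tie1. Dividing by the length of the canonical transcript instead kept Plvap first but moved Tek from place 2 to place 7 and put Tie1 last, so the order below Plvap depended on the length used.

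The VEGF receptors came first in the members' order of roles. Kdr, on chromosome 5 (chr5:76093487-76139884, GRCm39, minus strand), encodes VEGF receptor 2, the main signalling receptor for VEGF-A. The 250 bases before the start of its canonical transcript, shown because Kdr was the member whose 20 mg and control groups did not overlap, lie at chr5:76139119-76139368 on the minus strand of GRCm39 and touch no annotated exon. Capitals mark the letters CCNCNCCC, a CACCC-type motif of the kind bound by Krüppel-like factors, on either strand.
Kdr: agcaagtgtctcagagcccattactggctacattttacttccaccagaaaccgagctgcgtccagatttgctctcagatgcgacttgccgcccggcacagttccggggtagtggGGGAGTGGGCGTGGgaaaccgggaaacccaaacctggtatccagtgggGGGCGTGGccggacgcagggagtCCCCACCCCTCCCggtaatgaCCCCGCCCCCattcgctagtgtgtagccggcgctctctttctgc
This window held 7 such matches, some of them overlapping, and how many matches a window usually holds was not counted. The motif is common, since 57.1% of 13761 windows of the same length before tested protein-coding genes held at least 1, and 4 of the 10 members did (Kdr, Flt1, Plvap and Eng). A match is a description of the letters only.

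Kdr measured 82.0, 88.3, 85.0 and 101 CPM in the control kidneys. At 10 mg it measured 84.2, 81.1, 79.1 and 73.3 CPM, and at 20 mg 74.1, 78.9, 63.1 and 67.6 CPM. The group means were 89.0 ± 8.27, 79.4 ± 4.58 and 70.9 ± 6.96 CPM (SD, n = 4), with the 10 mg kidneys overlapping both other groups. At 20 mg the log2 fold change against control was -0.33 (SE 0.11, 95% interval -0.56 to -0.09), with an unadjusted p of 0.0098 and an adjusted p of 0.418 by edgeR. The exact two-sided permutation test on Kdr alone gave p = 0.0286, the smallest that 4 against 4 kidneys allow. At 10 mg the log2 fold change was -0.16 (adjusted p = 0.894 by edgeR). With the mitochondrial share as a covariate the 20 mg value was -0.35, and its adjusted p was 0.0644 by edgeR. This was the only one of 790 alternative fits of the members in which a member was called, and the same covariate raised the calls over all genes at 20 mg from 52 to 1386.

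Flt1 (chr5:147498414-147662826) encodes VEGF receptor 1, which binds VEGF tightly and signals weakly. Its levels were 92.6, 128, 108 and 112 CPM in controls, 139.8, 104, 119.7 and 107 CPM at 10 mg, and 119, 127, 163 and 111 CPM at 20 mg. The groups overlapped, and the log2 fold changes against control were 0.10 at 10 mg and 0.24 (95% interval -0.07 to 0.56) at 20 mg, with adjusted p of 0.945 and 0.722 by edgeR. The highest control, 10 mg and 20 mg kidneys were all libraries of low mitochondrial share.

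The Tie receptors showed no called change. Tek (chr4:94627291-94763224), the angiopoietin receptor also called Tie2, was the steadiest member in controls at 65.6, 60.6, 64.5 and 61.7 CPM, a coefficient of variation of 3.69%. At 10 mg it ranged from 49.9 to 61.2 CPM and at 20 mg from 48.6 to 67.0 CPM, giving log2 fold changes of -0.16 (adjusted p = 0.902) and -0.19 (adjusted p = 0.722 by edgeR). Tie1 (chr4:118328385-118347261), a receptor that modulates Tie2 signalling, measured 32.6, 41.4, 30.8 and 30.8 CPM in controls. At 10 mg its values were 47.6, 31.5, 46.8 and 36.0 CPM, and at 20 mg they were 32.3, 34.5, 44.1 and 35.3 CPM. Its log2 fold changes against control were 0.26 (adjusted p = 0.892) and 0.11 (adjusted p = 0.903 by edgeR).

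Eng (chr2:32535543-32574661) encodes endoglin, a co-receptor for ligands of the transforming growth factor β family. Controls measured 77.7, 65.6, 82.5 and 89.5 CPM, the 10 mg kidneys 63.3, 69.3, 59.5 and 75.4 CPM, and the 20 mg kidneys 87.4, 119, 75.9 and 83.6 CPM. Each 20 mg kidney was above each 10 mg kidney, while controls overlapped both. The log2 difference between the doses was 0.45 (SE 0.15, 95% interval 0.14 to 0.77), with an unadjusted p of 0.0080 and an adjusted p of 0.758 by edgeR (exact two-sided permutation p = 0.0286). Against control the log2 fold changes were -0.24 at 10 mg and 0.21 at 20 mg, with adjusted p of 0.894 and 0.763 by edgeR. Both libraries of low mitochondrial share in the 10 mg group lay below its other 2 for Eng. The log2 difference between the doses was 0.42 without the 4 libraries of low share (adjusted p = 0.973) and 0.27 with the share as a covariate (adjusted p = 0.256 by edgeR).

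The junction genes overlapped between all groups. Pecam1 (chr11:106543689-106641454) encodes the adhesion molecule CD31. It measured 79.7 ± 5.88, 80.4 ± 9.74 and 89.4 ± 11.3 CPM (SD, n = 4) in control, 10 mg and 20 mg kidneys, and its 20 mg log2 fold change was 0.16 (95% interval -0.10 to 0.43, adjusted p = 0.789 by edgeR). Cdh5 (chr8:104828231-104871143) encodes VE-cadherin, the adhesion protein of endothelial adherens junctions. Its values were 33.6, 24.7, 40.6 and 35.0 CPM in controls, 30.2, 38.4, 25.3 and 33.5 CPM at 10 mg, and 39.7, 48.6, 21.8 and 35.6 CPM at 20 mg. The 20 mg group therefore held both the highest and the lowest kidney of the series, and the 20 mg log2 fold change was 0.12 with a wide interval of -0.33 to 0.58 (adjusted p = 0.925 by edgeR).

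Emcn (chr3:137046794-137138999) encodes endomucin, a sialomucin of capillary and venous endothelium. Its 250 bases upstream (chr3:137046544-137046793, GRCm39, plus strand) are shown with the core letters of the ETS motif, AGGAAG on either strand, in capitals, because ETS factors such as Erg and Fli1 are regulators of endothelial genes.
Emcn: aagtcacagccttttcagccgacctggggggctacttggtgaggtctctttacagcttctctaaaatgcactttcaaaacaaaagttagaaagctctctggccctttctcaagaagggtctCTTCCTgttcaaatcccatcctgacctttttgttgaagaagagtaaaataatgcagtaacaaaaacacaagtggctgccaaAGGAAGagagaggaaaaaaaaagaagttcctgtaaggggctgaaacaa
The window held 2 matches and no annotated exon. AGGAAG was found in 28.5% of the 13761 windows and in 3 of the 10 members (Flt1, Emcn and Tie1). AGATAA, the letters of the GATA motif, was found in 7.2% of all windows and in Plvap alone among the members.

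Emcn measured 54.0, 46.2, 46.6 and 56.2 CPM in controls and 32.7, 40.4, 37.3 and 50.8 CPM at 10 mg. At 20 mg it measured 54.5, 57.4, 50.5 and 45.3 CPM. At 10 mg, 3 of the 4 kidneys lay below every kidney of both other groups, and the remaining one fell within the control range. The log2 fold change at 10 mg was -0.33 (SE 0.14, 95% interval -0.63 to -0.04), with an unadjusted p of 0.0305 and an adjusted p of 0.828 by edgeR. From 10 to 20 mg the log2 difference was 0.37 (adjusted p = 0.758 by edgeR), and at 20 mg against control it was 0.03. The lowest kidneys, at 32.7 and 37.3 CPM, were the pair of 10 mg libraries with low mitochondrial share, and without the 4 low libraries the 10 mg value was -0.20 (adjusted p = 0.961 by edgeR).

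Plvap (chr8:71948674-71964506) had values of 157, 199, 163 and 138 CPM in controls, 253, 163, 165 and 180.4 CPM at 10 mg, and 161, 243, 229 and 200.4 CPM at 20 mg. At 20 mg, 3 of the 4 kidneys were above every control, and the remaining one was within the control range. The log2 fold change at 20 mg was 0.34 (SE 0.17, 95% interval -0.03 to 0.71, adjusted p = 0.632 by edgeR). Ehd3 (chr17:74111129-74139089), an endocytic recycling protein enriched in glomerular endothelium, measured 31.7 ± 3.05, 32.3 ± 2.14 and 35.0 ± 6.30 CPM (SD, n = 4), and its 20 mg log2 fold change was 0.14 (adjusted p = 0.849 by edgeR).

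**Figure D1:**
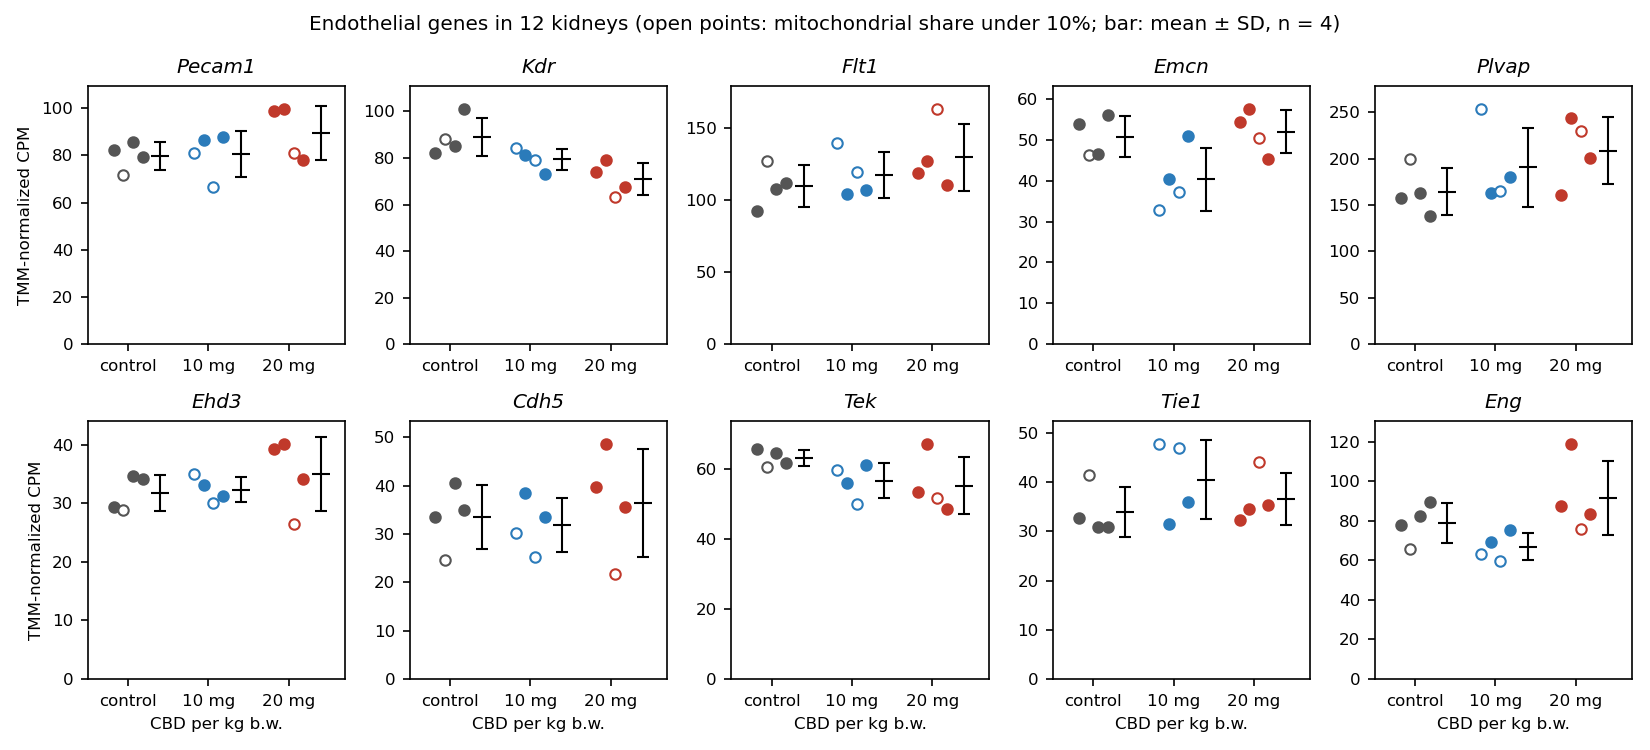
TMM-normalized CPM of each of the 10 genes (vertical axes, from 0) in every kidney of the control, 10 mg and 20 mg groups, with the mean ± SD of 4 kidneys as a bar and open points for the 4 libraries with a mitochondrial share under 10%. Kdr was at 63.1 to 78.9 CPM at 20 mg, below the control range of 82.0 to 101 CPM, and the open points were lowest in Cdh5 and highest in Tie1.

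Counted together, 0 of the 10 genes were called at 10 mg (5 of all tested genes, 0.0291%), and 0 at 20 mg (52 genes, 0.303%). Between the doses 0 members and 0 genes were called (0%), and with both doses pooled against control 0 members were called (24 genes, 0.14%). DESeq2 also called 0 members in each comparison. At an unadjusted p under 0.05, 1 member passed at 10 mg (Emcn, 5.67% of all genes), 1 at 20 mg (Kdr, 8.45%), 2 between the doses (Emcn and Eng, 6.31%) and 1 with doses pooled (Kdr, 7.04%). These shares over 10 genes were not tested against the background. Groups did not overlap in 1 member at 20 mg against control (Kdr, lower, as in 2.63% of all genes, and 5.3% in either direction), in 1 between the doses (Eng, higher, as in 1.7%, and 3.1% in either direction) and in none at 10 mg (3.19% in either direction) or with doses pooled (0.862%).

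Log2 fold changes against control were above 0 in 5 of 10 members at 10 mg (52.3% of all genes) and in 8 of 10 at 20 mg (52.5%). The median log2 fold change of the members was -0.03 at 10 mg and 0.13 at 20 mg, against 0.01 over all tested genes at both doses. Only Kdr and Tek were below 0 at 20 mg. Both dose comparisons share the 4 control kidneys, so they are not independent of each other. The summed CPM of the 10 genes was 707 to 755 in controls, 680 to 826 at 10 mg and 739 to 915 at 20 mg, with overlap between all groups.

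**Figure D2:**
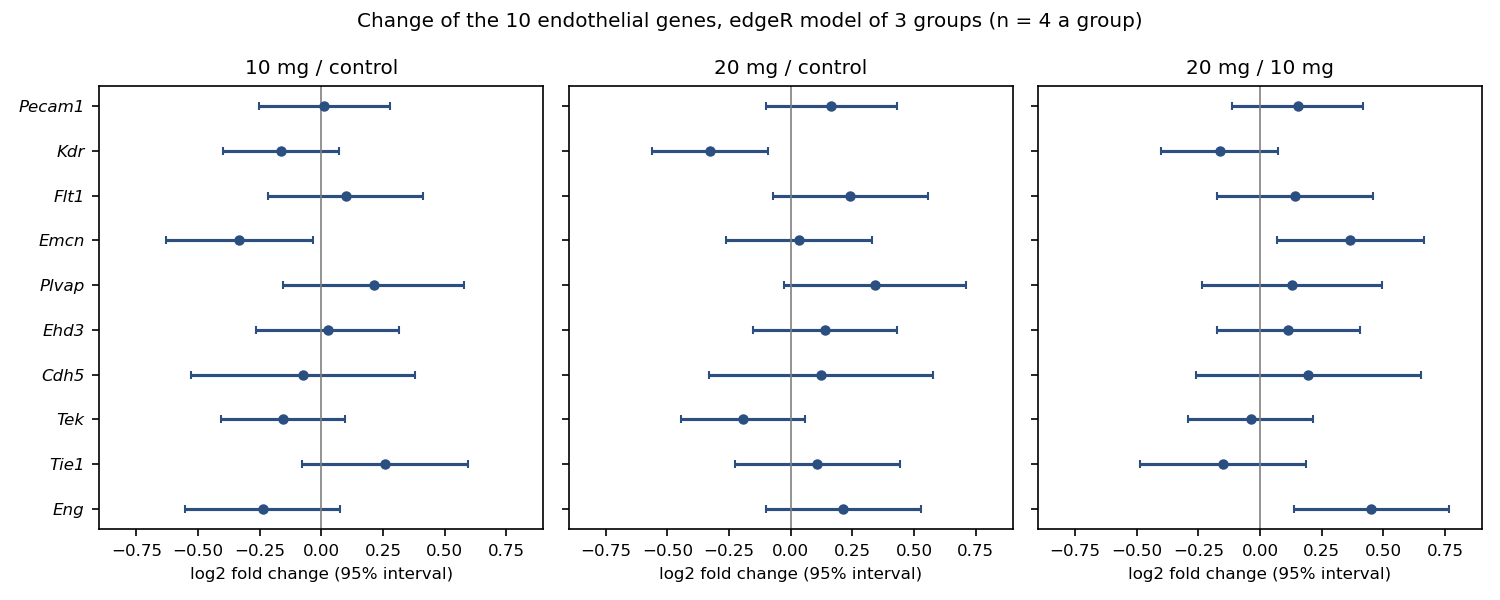
Log2 fold change of each gene (points) with its 95% interval (bars) for 10 mg against control, 20 mg against control and 20 mg against 10 mg, from the edgeR model of 3 groups with 4 kidneys each. Intervals left 0 for Emcn at 10 mg (-0.33), Kdr at 20 mg (-0.33), and Emcn (0.37) and Eng (0.45) between the doses, before adjustment over genes.

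Other genes of the vessels were read from 12 lists that held 94 genes, among them ligands and partners of the receptors above. At 10 mg none of them was called. At 20 mg 2 were called, both higher, where 0.169% of all genes were called higher. These were Rgcc and Klf2, and another gene, Myh11 of the mural cell list, was also called.

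Rgcc, a regulator of the cell cycle that is abundant in capillary endothelium, measured 9.57, 8.20, 8.11 and 5.60 CPM in controls. At 10 mg it measured 11.2, 9.37, 10.8 and 11.7 CPM, and at 20 mg 12.4, 20.1, 18.3 and 14.7 CPM. Every 20 mg kidney was above every other kidney, and the log2 fold change was 1.05 (SE 0.18, adjusted p = 0.0357 by edgeR). The call was lost without control 2, control 4 or 20 mg replicate 2, with adjusted p of 0.122, 0.131 and 0.136 by edgeR. At 10 mg its log2 fold change was 0.45 (adjusted p = 0.812 by edgeR).

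Klf2, a transcription factor induced by blood flow over endothelium, measured 8.86, 8.82, 11.6 and 10.3 CPM in controls and 14.5, 11.2, 12.0 and 15.0 CPM at 10 mg. At 20 mg it measured 14.7, 22.2, 24.2 and 15.2 CPM, above every control. The log2 fold change at 20 mg was 0.95 (SE 0.18, adjusted p = 0.0567 by edgeR). It was lost in 5 of the 12 fits that left out 1 library: without control 1, 2 or 4 and without 20 mg replicate 2 or 3, with adjusted p of 0.128 to 0.205 by edgeR. All 5 flow-responsive genes were above 0 at 20 mg, with a median of 0.53, but only Klf2 was called. Nos3, endothelial nitric oxide synthase, was at 0.53 (adjusted p = 0.446) and Klf4 at 0.77 (adjusted p = 0.483 by edgeR).

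**Figure D3:**
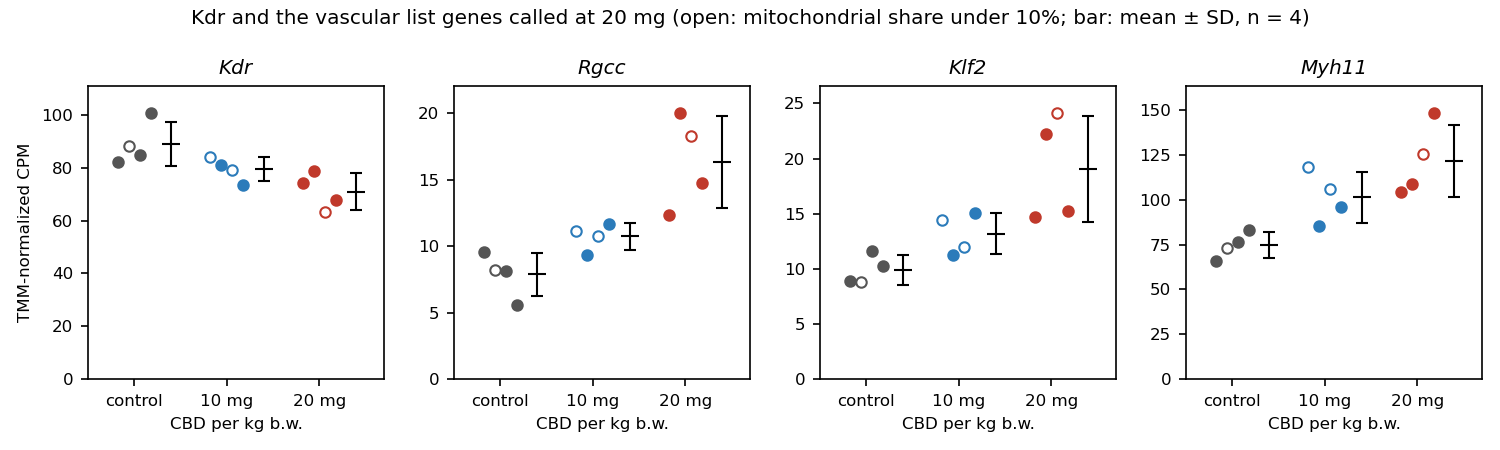
TMM-normalized CPM (vertical axes, from 0) of Kdr and of Rgcc, Klf2 and Myh11 in each kidney of the 3 groups, with the mean ± SD of 4 kidneys as a bar and open points for low mitochondrial share. At 20 mg Rgcc reached 12.4 to 20.1 CPM and Klf2 14.7 to 24.2 CPM, above all controls, while Kdr was below all controls.

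The ligands and co-receptors of VEGF were not called: 6 of 8 were above 0 at 20 mg with a median log2 fold change of 0.18. Pgf, placental growth factor, had the smallest p at 0.99 (adjusted p = 0.526 by edgeR), at low means of 0.415 CPM in controls and 0.837 CPM at 20 mg. At 10 mg the smallest p was that of Nrp1, a VEGF co-receptor, at 0.42 (adjusted p = 0.893 by edgeR). Nrp1 measured 301 and 293 CPM in replicates 1 and 3 of that group, of low mitochondrial share, and 137 and 140 CPM in replicates 2 and 4. Controls measured 138 to 175 CPM, with control 2, also of low share, at 170 CPM. At 20 mg, replicate 3, of low share too, measured 312 CPM, and replicates 1, 2 and 4 measured 144, 148 and 163 CPM. Vegfa itself, the main ligand of Kdr, was at 0.00 and -0.19 at the lower and higher dose. Among the angiopoietins and Ptprb, 3 of 4 were above 0 at 20 mg. Angpt1, the activating Tek ligand, was at -0.26 (adjusted p = 0.637 by edgeR), and Angpt4 had the smallest p at 10 mg, at 0.77 (adjusted p = 0.871 by edgeR). Angpt4 was also low, at means of 0.484 CPM in controls and 0.825 CPM at 10 mg, with 6 to 27 reads per library.

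In the endoglin and ALK1 pathway 12 of 14 genes were tested, and 7 were above 0 at each dose. The smallest p at 20 mg was that of Id3, a target gene of this pathway, at 0.61 (adjusted p = 0.383 by edgeR), and at 10 mg that of Smad7, an inhibitory Smad, at 0.49 (adjusted p = 0.796 by edgeR). Of 10 Notch pathway genes, 7 and 8 were above 0, led at both doses by Hes1 at 0.39 and 0.48 (adjusted p = 0.830 and 0.455 by edgeR). The 9 junction partners had medians of -0.06 and 0.00. Their smallest p was that of Ctnnd1 at 10 mg (0.37, adjusted p = 0.870) and Ctnnb1 at 20 mg (-0.24, adjusted p = 0.721 by edgeR).

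The 19 other pan-endothelial genes had a median log2 fold change of 0.13 at 10 mg and 0.35 at 20 mg, with 13 and 17 above 0. None was called. S1pr1, a receptor for sphingosine-1-phosphate, led at 20 mg with 0.51 (adjusted p = 0.391 by edgeR) and Esam at 10 mg with 0.31 (adjusted p = 0.870 by edgeR). The summed CPM of this list was 237 to 268 in controls, 260.0 to 305 at 10 mg and 272 to 332 at 20 mg. Only the control and 20 mg ranges did not overlap, whereas the sum of the 10 members overlapped between these groups.

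Arterial genes had a median of 0.51 at 20 mg with 6 of 7 above 0, led by Cxcl12 at 0.62 (adjusted p = 0.337 by edgeR), and Gja4 led at 10 mg at 0.61 (adjusted p = 0.870 by edgeR). The venous and capillary list, which contains Rgcc, summed to 345 to 435 CPM in controls, 439 to 531 CPM at 10 mg and 489 to 578 CPM at 20 mg. Igfbp3, which encodes a binding protein of insulin-like growth factors, made up most of this sum (180.5 to 289 CPM in controls), and it was at 0.65 at 20 mg (adjusted p = 0.127 by edgeR). The list's median log2 fold changes were 0.29 and 0.17, with 5 and 4 of 6 genes above 0. Of 5 lymphatic genes 4 were tested, all but Lyve1, which was at 0 to 0.351 CPM. They were led by Pdpn at 20 mg (-0.46, adjusted p = 0.522) and Prox1 at 10 mg (0.21, adjusted p = 0.958 by edgeR). Of the activation genes, 2 of 4 were tested, with Vcam1 at 0.54 at 20 mg (adjusted p = 0.337) and Icam1 at 0.15 at 10 mg (adjusted p = 0.932 by edgeR). Only Tbx3 of the 3 glomerular endothelial genes was tested, at 0.26 and 0.34 (adjusted p = 0.915 and 0.753 by edgeR).

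**Figure D4:**
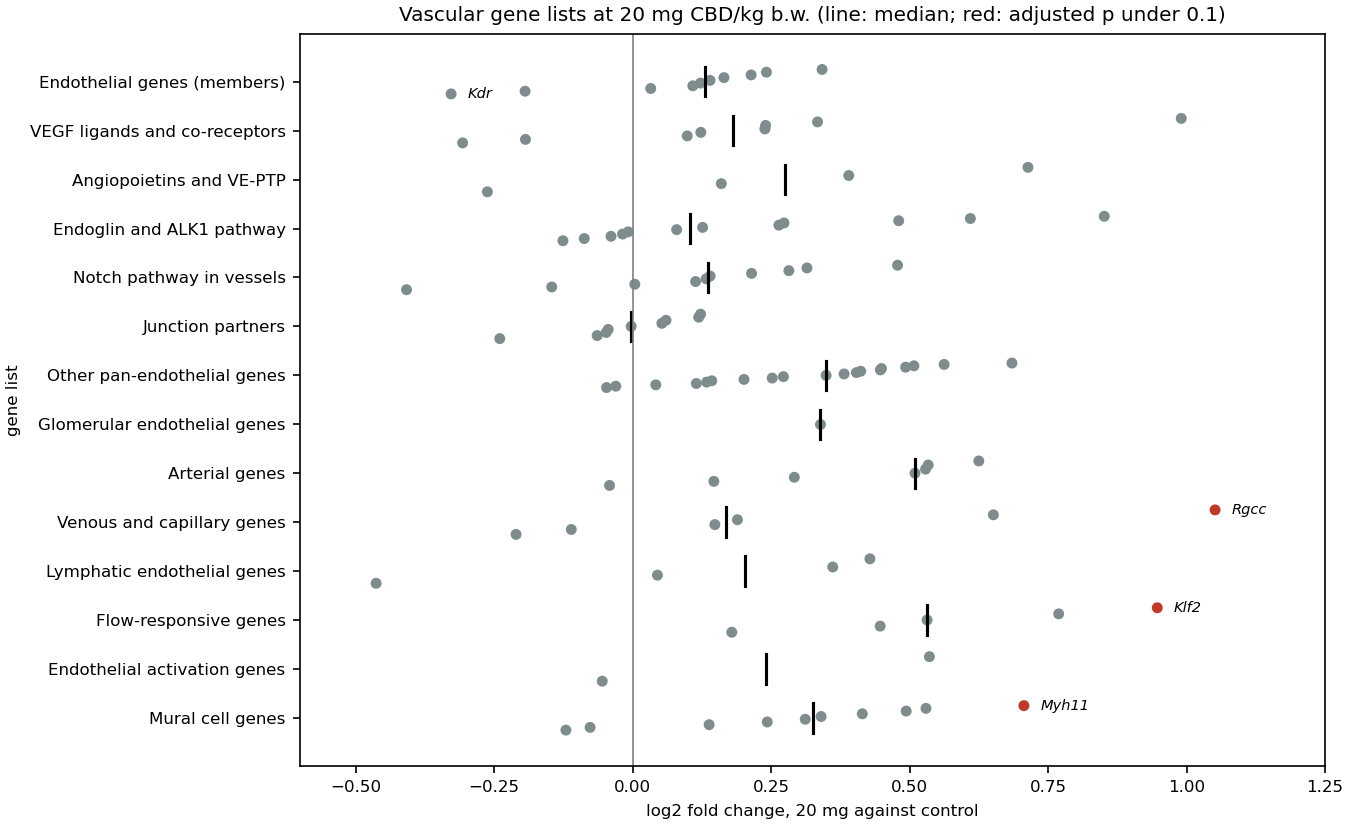
Log2 fold change at 20 mg against control (horizontal axis) of each tested gene in the members, the other vascular lists and the mural cell list, with the median of each list as a line and called genes in red. Median lines lay at 0.13 for the members and 0.35 for the other pan-endothelial genes, and the called genes were Rgcc at 1.05, Klf2 at 0.95 and Myh11 at 0.71.

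Lists for neighbouring cell types were read in the same comparison, and 1 gene was called in each of the mural and proximal tubule lists. Among 10 mural cell genes, 8 were above 0 at 20 mg, and Myh11, smooth muscle myosin, rose by 0.71 on the log2 scale (SE 0.14, adjusted p = 0.0760 by edgeR). Myh11 also led this list at 10 mg at 0.44 (adjusted p = 0.796 by edgeR). Its 20 mg call was lost in 9 of 12 fits that left out 1 library (adjusted p of 0.105 to 0.258 by edgeR), among them every fit without a control. The summed CPM of the mural list was 289.5 to 338 in controls, 330 to 362 at 10 mg and 393 to 442 at 20 mg. Its largest parts were Myh11 (means of 74.7 CPM in controls and 122 CPM at 20 mg) and Rgs5 (72.3 and 102 CPM). Cspg4 and Kcnj8 had lower means at 20 mg than in controls. Proximal tubule genes summed to 6209 to 7883 CPM in controls, 5260 to 6170 at 10 mg and 5133 to 5554 at 20 mg. Slc34a1 and Lrp2 were most of this sum (control means of 3553 and 2227 CPM). Slc22a6 had means of 652, 672 and 637 CPM in control, 10 mg and 20 mg kidneys. Log2 fold changes were below 0 in 4 of 5 genes at 10 mg and 5 of 5 at 20 mg. Slc5a2, the glucose transporter SGLT2, fell by 0.61 at 20 mg, where 0.134% of all genes were called lower (adjusted p = 0.0820 by edgeR, lost in 8 of 12 fits without 1 library). None of the 5 proximal tubule genes was at 0 in every library. The adipocyte list summed to 6.50 to 96.5 CPM in controls, 0.949 to 34.9 at 10 mg and 0.420 to 18.4 at 20 mg, with none of its genes called. The part of tissue composition in the endothelial values was not tested.

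In 2 of the 10 members, the libraries of low and higher mitochondrial share did not overlap, where 12.9% of all genes separated in either direction. Cdh5 was at 21.8 to 30.2 CPM in the 4 libraries of low share and at 33.5 to 48.6 CPM in the other 8, without overlap, a pattern that 6.65% of all genes showed. Tie1 had the opposite order, at 41.4 to 47.6 CPM in the low libraries and 30.8 to 36.0 CPM in the others, shown by 6.29% of all genes. The other 8 members overlapped.

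With the share as a term in the model beside the groups, 7 of the 10 members were called over 12 libraries, where 38.3% of all genes were. They were 5 that rose with the share (18.7% of all genes) and 2 that fell with it (19.6%). Per 10 percentage points of mitochondrial share, Cdh5 rose by 0.51 on the log2 scale (SE 0.08, adjusted p = 0.000218 by edgeR) and Eng by 0.27 (adjusted p = 0.00773 by edgeR). Pecam1 (0.20), Ehd3 (0.20) and Emcn (0.18) also rose. Tie1 fell by 0.32 (SE 0.07, adjusted p = 0.00229 by edgeR) and Flt1 fell by 0.23 (adjusted p = 0.0287 by edgeR). Kdr (0.06), Tek (0.12) and Plvap (-0.17) were not called.

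In the other 8 libraries alone, where the share varied less and fewer samples entered, the same term called 0 members (0.00583% of all genes). The genes that rose over 12 libraries had slopes of similar or larger size there: 0.46 for Cdh5 (SE 0.18, unadjusted p = 0.0189, adjusted p = 0.705 by edgeR), 0.37 for Eng, 0.35 for Pecam1, 0.28 for Ehd3 and 0.18 for Emcn. Of the genes that fell, Flt1 was at 0.21, with the opposite sign, and Tie1 at -0.07. Over these 8 libraries, the correlation of Cdh5 with the share was r = 0.91 (exact permutation p = 0.0026, adjusted over 10 members 0.013) and rho = 0.74 (exact permutation p = 0.0458, adjusted 0.153), with r = 0.78 after leaving out the 2 libraries farthest from the median share. Those 2 were replicates 1 and 2 of the 20 mg group, at 20.6% and 23.4%. These correlations took no account of the groups, so they do not separate share from dose. For Pecam1 r was 0.92 (exact permutation p = 0.0025, adjusted 0.013) and rho 0.83 (exact permutation p = 0.0154, adjusted 0.153), and r was 0.64 without those 2 libraries. For Ehd3 r was 0.87 (exact permutation p = 0.0059, adjusted 0.0195) and rho 0.76 (exact permutation p = 0.0368, adjusted 0.153), with r = 0.47 without them. Flt1, which fell with the share over 12 libraries, had r = 0.80 here (exact permutation p = 0.0136, adjusted 0.0340) and rho = 0.62 (exact permutation p = 0.115, adjusted 0.287), with r = 0.33 without them. For Eng r was 0.72 (exact permutation p = 0.0440, adjusted 0.0879) and rho 0.33 (exact permutation p = 0.428, adjusted 0.671). Its relation rested on those 2 libraries, since r was -0.19 without them. The other 5 members had adjusted p of at least 0.201 for r. No label gives an extraction or sequencing batch, and the cause of the difference in mitochondrial share was not tested.

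**Figure D5:**
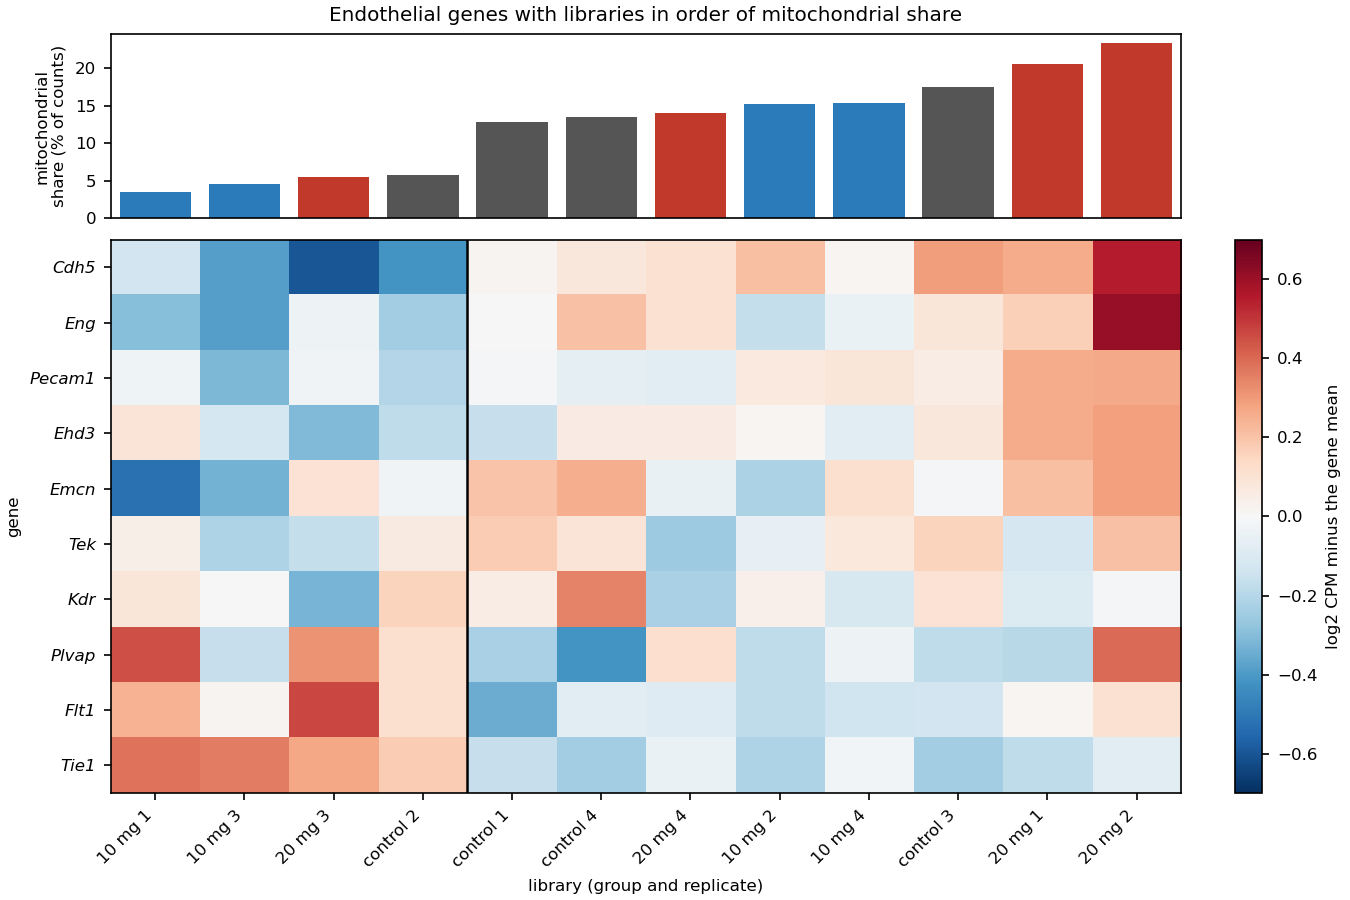
Share of counts on mitochondrial genes (upper bars, %, coloured by group) and log2 CPM of each of the 10 genes minus its own mean (lower squares, red above and blue below), with the 12 libraries in order of share and a line between the 4 low libraries (up to 5.77%) and the 8 others (from 12.8%). Cdh5 was below its mean in the 4 low libraries and Tie1 above it.

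Variation between mice was also compared among the members. Over the 12 libraries, 24 of the 45 pairs of members had a positive correlation of log2 CPM and 21 a negative one, with a median r of 0.05. By permutation, 9 of these pairs had an adjusted p under 0.1 for r, of which 8 were positive and 1, Cdh5 with Tie1, was negative. For rho only Emcn with Eng, Ehd3 with Cdh5 and Cdh5 with Tie1 did (adjusted permutation p = 0.064, 0.087 and 0.099). All 10 pairs among Pecam1, Emcn, Ehd3, Cdh5 and Eng were positive, with a median r of 0.69, a grouping made after the values were seen. These values mix the 4 libraries of low mitochondrial share with the others. Within the 8 libraries of higher mitochondrial share 34 pairs were positive and 11 negative, with a median of 0.30. Flt1 and Ehd3 were the closest pair there (r = 0.93, exact permutation p = 0.0014, adjusted over 45 pairs 0.0614, and rho = 0.90, exact permutation p = 0.0046, adjusted 0.103), with r = 0.84 without the 2 libraries farthest from the median of Flt1. Kdr and Tie1 were the most opposed (r = -0.75, exact permutation p = 0.0216, adjusted 0.244, and rho = -0.83, exact permutation p = 0.0154, adjusted 0.173), with r = -0.69 without the 2 libraries farthest from the median of Kdr. Within these 8 libraries no pair apart from Flt1 and Ehd3 had an adjusted p under 0.1 for r, and none had for rho.

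Outside the members, the 10 tested genes most like their mean level, by r over 12 libraries with group means removed, were Aebp2 (0.91), Gm36371 (0.91), Cyp2t4 (0.91), Cx3cl1 (0.89), Nrp2 (0.89), Atp6v0c-ps2 (0.89), Mex3d (0.88), Whamm (0.88), Dnal1 (0.88) and Sox12 (0.87). Nrp2 was the one that a vascular list already held. All libraries contribute to each of these values, including the 4 of low mitochondrial share, and Cyp2t4 and Gm36371 were low at 0.726 and 1.63 CPM.

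As many as 4 members share exonic bases with a gene on the opposite strand in GENCODE vM39: Plvap with Gtpbp3 (834 bp), Eng with Fpgs (860 bp), Tie1 with Gm70435 (238 bp) and Cdh5 with Gm64067 (87 bp). The strand setting of the counting is not given in the sources used here, so reads from those bases may not be told apart.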

How the data were processed

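Poly(A) RNA of 12 mouse kidneys (3 groups of 4) was sequenced by the study with a Lexogen CORALL kit. The authors used Flexbar for trimming and STAR 2.7.5c for mapping to GRCm39, and deposited raw counts per Ensembl gene from HTSeq 1.99.2. The annotation release, the strand setting and the use of molecular identifiers are not given in the sources used here. Totals were 15417867 to 23532088 counts per library. Summary lines of the counter were left out. They held 12.1 to 19.9% (no gene) and 4.72 to 5.29% (ambiguous) of the sum of assigned, no-gene and ambiguous counts.

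Genes passing filterByExpr (17163) were tested in edgeR 4.0.16 (R 4.3.3) with TMM normalization and 1 mean per group. The quasi-likelihood test was used with Benjamini-Hochberg adjustment over all genes and a threshold of 0.1. Single genes were also compared by the exact two-sided permutation test (70 arrangements). DESeq2 1.42.0, another normalization, no filter, a replicate block, the mitochondrial share as a covariate, mitochondrial genes removed, only the groups compared and each library left out were the alternatives. Leaving out the 4 libraries of low mitochondrial share, fitting that share as a term, and working within the other 8 were added after seeing the data. Gene positions and canonical transcripts came from GENCODE vM39, in which 99.0% of identifiers were found, and upstream sequences from the GRCm39 genome.

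The members and gene lists were chosen with earlier results of these data known. Named genes were the members, list genes called in any comparison, the gene of smallest p in each list at each dose, and the 10 genes most like the members. A gene selected by this rule is not reported here. Vegfa, Nos3, Klf4 and Igfbp3 were named after their values were seen. Of 66 library pairs 0 were identical.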

Additional observations from a re-analysis of the deposited data

Results flagged for a closer look

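Tie1 in control 2 measured 41.4 CPM, while the other 3 controls lay between 30.8 and 32.6 CPM. The gap to the nearest control, as a part of the group's range (0.833), was above Dixon's 95% critical value for 4 samples. Of 33 such comparisons this was the only one past the limit, and chance marks about 1 in 20 groups. Control 2 is the control library with a mitochondrial share of 5.77%, and the low libraries of the treated groups held Tie1 at 44.1 to 47.6 CPM.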

How the results depend on the processing

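The number of members called stayed at 0 in each comparison under the alternatives run, except at 20 mg with the mitochondrial share as a covariate, where it was 1 (Kdr, -0.35). Of 790 alternative fits of a member, 753 kept direction and side of the threshold and 36 changed sign, none of them a called value. No label says whether replicate numbers pair the kidneys, and this was not tested. Same-numbered samples correlated at -0.33 to 0.32 (median 0.03), and 4 of 12 pairs were above 0.1. With the number as a block 0 members were called, Cdh5 with doses pooled turned to -0.018, and Rgcc, Klf2, Myh11 and Slc5a2 had adjusted p of 0.104, 0.138, 0.138 and 0.206 by edgeR. Slc5a2 was also lost with only the groups compared (0.104 by edgeR).

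Signs turned without a filter for Pecam1 (-0.013) and Ehd3 (-0.000307) at 10 mg. With the mitochondrial covariate they turned for Cdh5 at 10 mg (0.080), at 20 mg (-0.084), between doses (-0.16) and pooled (-0.0020), for Emcn at 20 mg (-0.032), and between doses for Ehd3 (-0.029) and Tie1 (0.061). Without the 4 low-share libraries they turned for Ehd3 at 10 mg (-0.029), Tie1 between doses (0.016) and Eng pooled (0.0046). Leaving out 1 library, values that turned ranged from -0.035 to 0.093 for Pecam1, -0.017 to 0.069 for Ehd3 and -0.19 to 0.033 for Cdh5 at 10 mg. At 20 mg they ranged from -0.019 to 0.093 for Emcn and -0.047 to 0.30 for Cdh5, between doses from -0.14 to 0.018 for Tek, and pooled from -0.10 to 0.13 for Cdh5 and -0.090 to 0.055 for Eng. The cause was not tested.

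The median correlation between members moved from 0.05 to 0.27 with group means removed and to 0.30 without the low-share libraries. Over all genes, calls at 10 mg, 20 mg, between doses and pooled were 331, 416, 256 and 393 without a filter, 40, 182, 12 and 136 by DESeq2, 15, 1386, 62 and 276 with the covariate, 4, 27, 0 and 17 with the block, and 26, 105, 0 and 64 without the low-share libraries. The lowest count of a member was 364 reads, and the effect of depth was not tested.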

Other observations

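Lists for other kidney and blood cells were read in the same libraries. Apart from Slc5a2 and Myh11, 0 of their genes were called at either dose. Podocyte genes, whose cells sit on the glomerular capillaries, had median log2 fold changes of -0.12 at 10 mg and 0.13 at 20 mg, led at 20 mg by Wt1 (0.27, adjusted p = 0.656 by edgeR). Red blood cell genes were below 0 in 5 of 5 at 10 mg, led by Hbb-bt (-0.54, adjusted p = 0.890), and the smallest p at 20 mg was that of Alas2 (-0.25, adjusted p = 0.847 by edgeR). Their summed CPM overlapped between groups, at 627 to 1470 in controls, 639 to 1169 at 10 mg and 711 to 1693 at 20 mg.

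Leukocyte genes were led by Cd68 at 10 mg (-0.59, adjusted p = 0.859) and Cd74 at 20 mg (0.25, adjusted p = 0.782 by edgeR). Distal nephron genes were led by Slc12a1 at 10 mg (0.40, adjusted p = 0.872) and Slc12a3 at 20 mg (-0.48, adjusted p = 0.391 by edgeR). Of 6 platelet genes 2 were tested, with Itga2b at 0.33 and 0.27 (adjusted p = 0.906 and 0.846 by edgeR), and of 3 adrenal genes only Star, at -0.23 and -0.17 (adjusted p = 0.899 and 0.856 by edgeR). Of the adipocyte genes, Plin1 was at -1.83 at 10 mg (adjusted p = 0.812) and Cidec at -3.02 at 20 mg (adjusted p = 0.253 by edgeR). In the proximal tubule list Slc34a1 led at 10 mg at -0.30 (adjusted p = 0.870 by edgeR).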
